A study of Solanum lycopersicum with 2 samples.

Results

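Type-A-high cells are the 5% of cells in each library that gave the largest share of their transcripts to 7 type-A response regulators of cytokinin signalling. The data are single-cell RNA sequencing of protoplasts, which are cells whose walls have been digested away, from whole root tips of wild-type tomato (Solanum lycopersicum) cultivar M82. The tips were the last 3 cm of primary roots at 7 days after sowing on medium without sucrose, each sample pooled many roots, and no treatment other than protoplasting was applied. Both libraries, replicates 1 and 2, belong to the one group M82 root, so type-A-high cells were compared with the rest of the cells in the same library and no condition was compared with another. The members were chosen by their measured levels of the 7 genes. Cells with at least 2000 UMIs (unique molecular identifiers, 1 per captured molecule of transcript) and at most 1% of UMIs from organelle genes were ranked by the share of UMIs from Solyc02g071220, Solyc03g113720, Solyc05g006420, Solyc06g048600, Solyc06g048930, Solyc10g079600 and Solyc10g079700. This gave 513 type-A-high cells of 10275 in library 1 and 349 of 6990 in library 2, that is 862 of 17265 cells, with 16403 cells as the rest. In all, 22734 barcodes were deposited.

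Cytokinin is perceived by histidine kinase receptors, which pass phosphate through histidine phosphotransfer proteins to type-B response regulators, and these switch on target genes. Type-A response regulators are among the first targets and, in Arabidopsis, dampen the same pathway, so their transcripts are widely read as a sign of cytokinin response. In roots cytokinin is known for its part in vascular patterning, in the change from division to elongation and in the root cap. The deposited tables do not pair identifiers with names, so the 7 genes are called by identifier. Their individual roles in tomato are not stated here.

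The libraries differed in depth and composition. Library 1 held 12481 barcodes and 187215851 UMIs, and library 2 held 10253 barcodes and 81175339 UMIs. Among 30 clusters built without the 7 genes, 3 held cells of library 2 only, with 1687 cells and 59 type-A-high cells. Altogether 38 barcodes occurred in both libraries, and 1 type-A-high cell of library 1 and 3 of library 2 carried one of them. Every value is therefore given by library. The 2 libraries are the replicates. The p-values set a difference within libraries against how it varies between the 2, with that spread mostly borrowed across genes. This variation may be technical.

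The share that placed a cell at the threshold was 0.0480% in library 1 and 0.0690% in library 2. The lowest type-A-high cell and the highest cell of the rest had shares equal to 3 significant digits in each library, and in library 2 the 3 cells at the threshold were tied. The median share was 0.0623% in type-A-high cells and 0.00823% in the rest of library 1, and 0.0915% in type-A-high cells and 0.00988% in the rest of library 2. A type-A-high cell held a median of 4 type-A UMIs in both libraries, with a maximum of 49 in library 1 and 29 in library 2. In library 1, 33 type-A-high cells had a single type-A UMI and 122 had 2. In library 2, none had a single one and 78 had 2. Among the rest, 35.2% of cells in library 1 and 39.3% in library 2 had no type-A UMI. The choice thus rested on few molecules per cell.

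Type-A-high cells were shallower than the rest. Their median was 5853 UMIs against 11247 in the rest of library 1, and 3863 against 6902 in library 2. After each cell was thinned to 2000 UMIs, the median number of genes was 1175 in type-A-high cells and 1146 in the rest of library 1, and 1189 and 1155 in library 2. Ranking the thinned cells kept 389 of the 862 type-A-high cells, or 45.1%. Thinned shares are whole UMI counts over 2000, so cells tie, and ties went to the earlier barcode. The part of ties in the 45.1% was not measured. Because depth differed, the main comparisons below are also given within 4 strata of depth.

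Solyc05g006420 supplied most type-A transcripts. It gave 41.1% of the type-A UMIs of type-A-high cells and 55.8% of those of the rest in library 1, and 35.6% and 52.9% in library 2. These shares count UMIs, which are not scaled for gene length. It was the gene with the most UMIs in 225 of 513 type-A-high cells of library 1 and 128 of 349 of library 2. In 141 and 107 cells no single gene led. As a description of what the rule chose, its summed level was 279 CPM (counts per 1000000 UMIs of the summed cells) in type-A-high cells and 63.7 CPM in the rest of library 1, and 356 and 77.8 CPM in library 2.

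The other members of the family were enriched to different degrees, again as a description with no test. Solyc03g113720 stood at 120 CPM in type-A-high cells and 4.72 CPM in the rest of library 1, but at 41.5 and 2.92 CPM in library 2. Solyc02g071220 stood at 66.0 and 11.4 CPM in library 1 and at 219 and 20.4 CPM in library 2. The libraries therefore put different genes second, Solyc03g113720 with 17.7% of the type-A UMIs of type-A-high cells in library 1 and Solyc02g071220 with 21.8% in library 2. Solyc10g079600 reached 70.8 and 130 CPM in type-A-high cells of libraries 1 and 2, Solyc10g079700 reached 73.6 and 107 CPM, and Solyc06g048600 reached 62.1 and 142 CPM. Solyc06g048930 was rare, with 33 UMIs in type-A-high cells and 43 in the rest of library 1, and 11 and 23 in library 2. Type-A-high cells held 14.4% and 14.3% of all type-A UMIs of libraries 1 and 2, in 2.75% and 2.39% of the UMIs.

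Most type-A-high cells carried more than one of the genes. At least 2 of the 7 were detected in 410 of 513 cells of library 1 (79.9%, exact 95% interval 76.2 to 83.3%) and in 290 of 349 cells of library 2 (83.1%, 78.7 to 86.9%). These intervals cover counting error only. The cells were chosen by the summed UMIs of these same 7 genes, so the counts describe the choice. They are not evidence that the genes rise together. No cell held all 7, and 12 cells of library 1 and 4 of library 2 held 6.

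To ask whether the genes rise together without using the values that chose the cells, each gene was held out in turn. Cells were ranked by the other 6 genes, the top 5% were taken, and the held-out gene was compared between those cells and the rest. It was higher in the chosen cells for 6 of the 7 genes (edgeR quasi-likelihood test on sums per library, library as a block, adjusted p under 0.05 over all genes tested). Over all genes tested in these 7 fits, 6.94%, 8.91%, 4.82%, 9.52%, 8.53%, 11.2% and 8.03% of genes (in the order of the list above) passed as higher. With 1 residual degree of freedom, the tests drew on 5.73 to 121 prior degrees of freedom estimated across genes in the 7 fits, so the sizes of their p-values are not comparable between genes.

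Solyc10g079600 was held out at 41.4 CPM in the chosen cells against 8.44 CPM in the rest of library 1, and at 77.1 against 12.7 CPM in library 2. Its log2 fold change was 2.26 ± 0.16 (SE, n = 2 libraries, edgeR adjusted p = 1.4e-23 with 121 prior degrees of freedom, and 0.0016 within clusters). Solyc03g113720 had the largest log2 fold change of the 7, 2.62 ± 0.19 (edgeR adjusted p = 1.9e-04), with 46.7 against 6.93 CPM in library 1 and 25.1 against 3.34 CPM in library 2. In both libraries the chosen cells lay above the rest for either gene.

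Solyc02g071220 was at 37.3 CPM in the chosen cells and 12.3 CPM in the rest of library 1, and at 137 and 22.4 CPM in library 2 (log2 fold change 1.93 ± 0.23, edgeR adjusted p = 0.0013). For Solyc06g048600 the levels were 29.6 and 10.0 CPM in library 1 and 64.9 and 14.95 CPM in library 2 (1.61 ± 0.19, edgeR adjusted p = 8.8e-09). Both genes differed more in library 2 than in library 1.

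The 2 genes with the most UMIs outside the chosen cells changed least among those that passed. Solyc10g079700 was at 42.2 CPM in the chosen cells and 18.3 CPM in the rest of library 1, and at 51.9 and 22.5 CPM in library 2 (log2 fold change 1.00 ± 0.16, edgeR adjusted p = 0.0017). Solyc05g006420 was at 147 and 67.9 CPM in library 1 and at 174 and 82.2 CPM in library 2 (0.93 ± 0.13, edgeR adjusted p = 0.0097). With Solyc05g006420 held out, 284 of 513 and 222 of 349 chosen cells were also type-A-high cells, the smallest overlap of the 7 rankings. Without the library as a block, none of the 7 genes passed (lowest edgeR adjusted p = 0.16, for Solyc03g113720).

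Solyc06g048930 did not pass. It had 1 UMI in the chosen cells and 75 in the rest of library 1, and 3 and 31 in library 2, so that the libraries went in opposite directions (log2 fold change 0.40 ± 1.05, edgeR adjusted p = 0.84). A difference was not detectable at this depth.

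**Figure D1:**
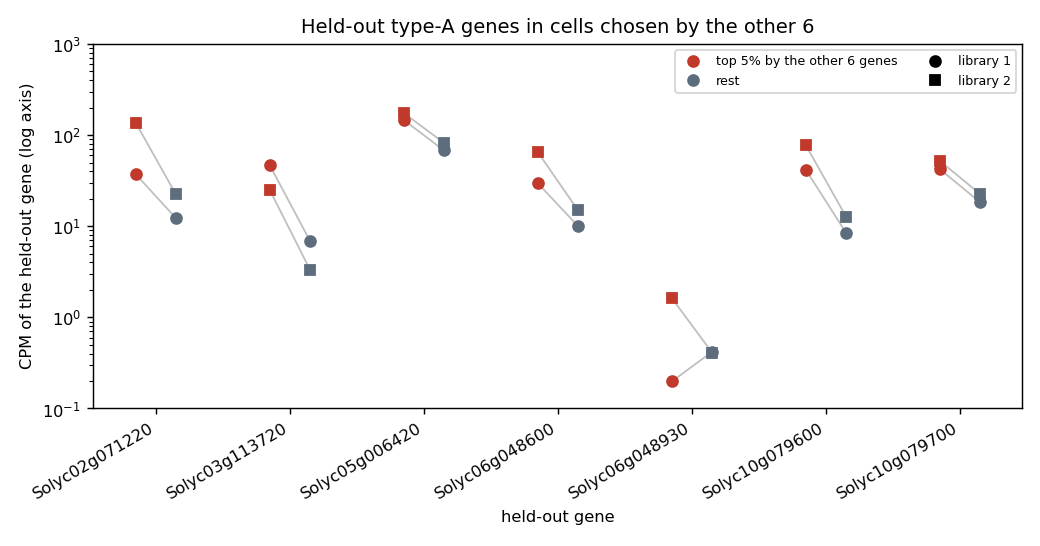
Level of each held-out type-A gene, in CPM on a log axis, in the top 5% of cells by the other 6 genes (red, left) and in the rest (grey, right), circles for library 1 and squares for library 2, lines joining values of 1 library. Every line but that of Solyc06g048930 in library 1 falls from left to right.

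The held-out differences were tested again within strata. Within the 4 depth strata 6 genes could be tested and all 6 passed, and within 6 clusters that held enough cells 5 could be tested and all 5 passed. Fold changes within clusters were smaller, 1.37 for Solyc10g079600 and 0.62 for Solyc05g006420 on the log2 scale (edgeR adjusted p = 0.0016 and 0.0013). Solyc03g113720 and Solyc06g048930 had too few counts to be tested there. Strata of 1 library are not separate samples, so p-values within strata rest partly on the spread between strata. Neighbouring identifiers could share reads if their sequences were alike, so both were held out together in a setting chosen after seeing the data. Solyc10g079600 then stood at 2.35 and Solyc10g079700 at 1.07 (edgeR adjusted p = 8.6e-05 and 9.3e-04), and Solyc06g048600 at 1.64 (1.9e-04).

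**Figure D2:**
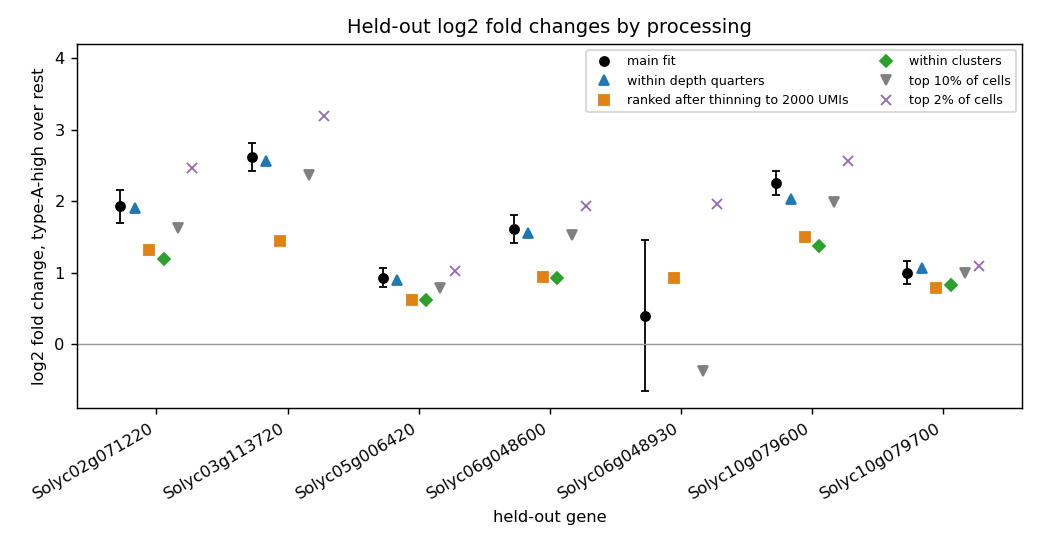
Log2 fold change of each held-out gene between the chosen cells and the rest under 6 settings. Black points with bars are the main values with their SE. Values of 6 genes lie above 0 in every setting drawn, while Solyc06g048930 ranges from -0.38 with the top 10% of cells to 1.96 with the top 2%.

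For the 6 genes that passed, the share of cells with a UMI gave the same order once cells were thinned to 2000 UMIs. For Solyc05g006420, 20.7% of chosen cells (exact 95% interval 17.2 to 24.4%) and 13.1% of the rest (12.4 to 13.7%) of library 1 had a UMI, and 25.8% (21.3 to 30.7%) and 16.2% (15.3 to 17.1%) in library 2. Unthinned, the shares in library 1 were 42.7% in chosen cells and 51.5% in the rest, at median depths of 4162 and 11354.5 UMIs, so the unthinned order was not read. The thinned intervals did not overlap for 6 of the 7 genes in either library. They cover counting error among cells of a library and take cells as independent, so this is a description and not a test. No cell type known to lack these genes could be named here, so the level of free RNA was not measured. The lowest summed level in any of the 19 clusters that had 50 or more cells of both libraries was 58.4 CPM in library 1 and 67.2 CPM in library 2.

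Type-A-high cells were found in most clusters of the root tip. They occurred in 25 of the 27 clusters with cells of library 1 and 28 of 30 of library 2. Clusters are given by number, since too few annotated markers were at hand to name them. The 3 clusters with the most type-A-high cells held 36.8% of them in library 1 (clusters 3, 1 and 5) and 36.7% in library 2 (clusters 5, 9 and 25).

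Relative to its size, cluster 8 was the richest in library 1, with 49 type-A-high cells of 325 (15.1%, exact 95% interval 11.4 to 19.4%), and had 33 of 395 in library 2 (8.4%, 5.8 to 11.5%). Cluster 5 held 54 of 524 (10.3%) and 56 of 470 (11.9%). Cluster 25 held 9 of 81 (11.1%) and 36 of 259 (13.9%), and cluster 24 held 29 of 300 (9.7%) and 9 of 62 (14.5%). All 4 lay above the 5% that the rule sets, with intervals that excluded it in both libraries. The intervals cover counting error among cells of a library, not the spread between libraries. At the other end, cluster 10 held 2 of 477 cells (0.42%) in library 1 and 0 of 149 in library 2, which allows a share of up to 2.01% by a limit of 3 counts and 2.45% by the exact interval. Cluster 10 was among the deepest, with median depths of 25898 and 13787 UMIs, and cluster 24 was the shallowest of the rich ones, with 3388.5 and 3464.5 UMIs. Cluster 8 was rich at a greater depth, with medians of 16468 and 8859 UMIs.

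**Figure D3:**
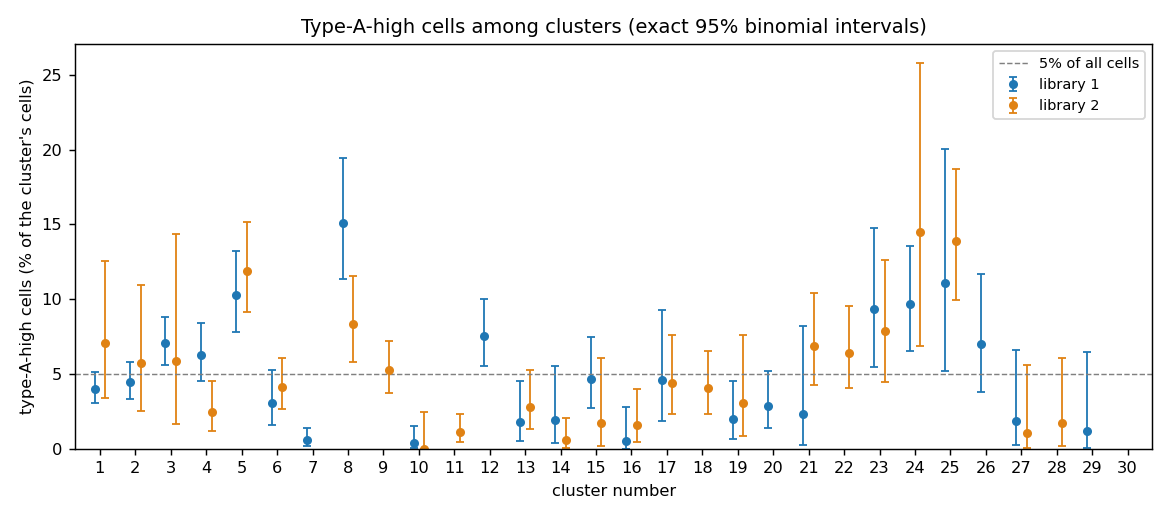
Type-A-high cells as a percent of the cells of each cluster, with exact 95% binomial intervals, for library 1 (blue) and library 2 (orange), in clusters with at least 50 cells of that library. The dashed line marks 5%, and the intervals of clusters 5, 8, 24 and 25 lie above it in both libraries, as do the points, but not both intervals, of clusters 3 and 23.

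The 7 genes were not spread alike over clusters. Over the 19 larger clusters, the summed type-A level ranged from 58.4 to 283 CPM in library 1 and from 67.2 to 293 CPM in library 2, with a Spearman correlation of 0.84 between the libraries (n = 19 clusters, a description across clusters that share each library). Solyc05g006420 was highest in cluster 8, at 183 CPM in library 1 and 169 CPM in library 2. Solyc02g071220 and Solyc10g079700 were both highest in cluster 5, with 36.1 and 38.0 CPM in library 1 and 60.4 and 43.4 CPM in library 2. Solyc05g006420 was still the gene with the most UMIs in cluster 5, at 79.8 and 104 CPM in libraries 1 and 2.

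Solyc10g079600 was highest in cluster 4 of library 1, at 40.8 CPM, and in cluster 25 of library 2, at 70.7 CPM. Over clusters it followed Solyc02g071220 (Spearman 0.73 in library 1 and 0.66 in library 2) and not Solyc06g048600 (-0.10 and -0.09). Solyc06g048600 was highest in cluster 23, at 31.7 and 57.2 CPM, and stood at 2.1 and 0 CPM in cluster 25. Its closest partner was Solyc10g079700 in library 1 (0.70) and Solyc05g006420 in library 2 (0.58). Summed over all its cells, cluster 25 had Solyc05g006420 highest, at 83.2 and 111 CPM, with next to no Solyc06g048600.

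Among the 6 genes other than Solyc06g048930, the libraries differed most in Solyc03g113720. This gene had 298 UMIs over all cells of library 2 that passed the filters, and 1452 in library 1. Its levels by cluster in library 2 therefore rest on few UMIs. Solyc03g113720 was highest in cluster 15 of library 1, at 34.2 CPM, where library 2 had 4.3 CPM. In library 2 it was highest in cluster 24, at 37.8 CPM, where library 1 had 7.2 CPM. Its Spearman correlation between the libraries was 0.29, against 0.76 to 0.89 for the 5 others. Solyc06g048930 was highest in cluster 17, which held 44 of its 76 UMIs in library 1 and 20 of 34 in library 2, the others being scattered over many clusters with at most 10 in any. Cluster 17 held 7 type-A-high cells of 152 in library 1 and 12 of 272 in library 2, close to the 5% of all cells. The 3 type-A-high cells that this gene led were all in cluster 17.

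**Figure D4:**
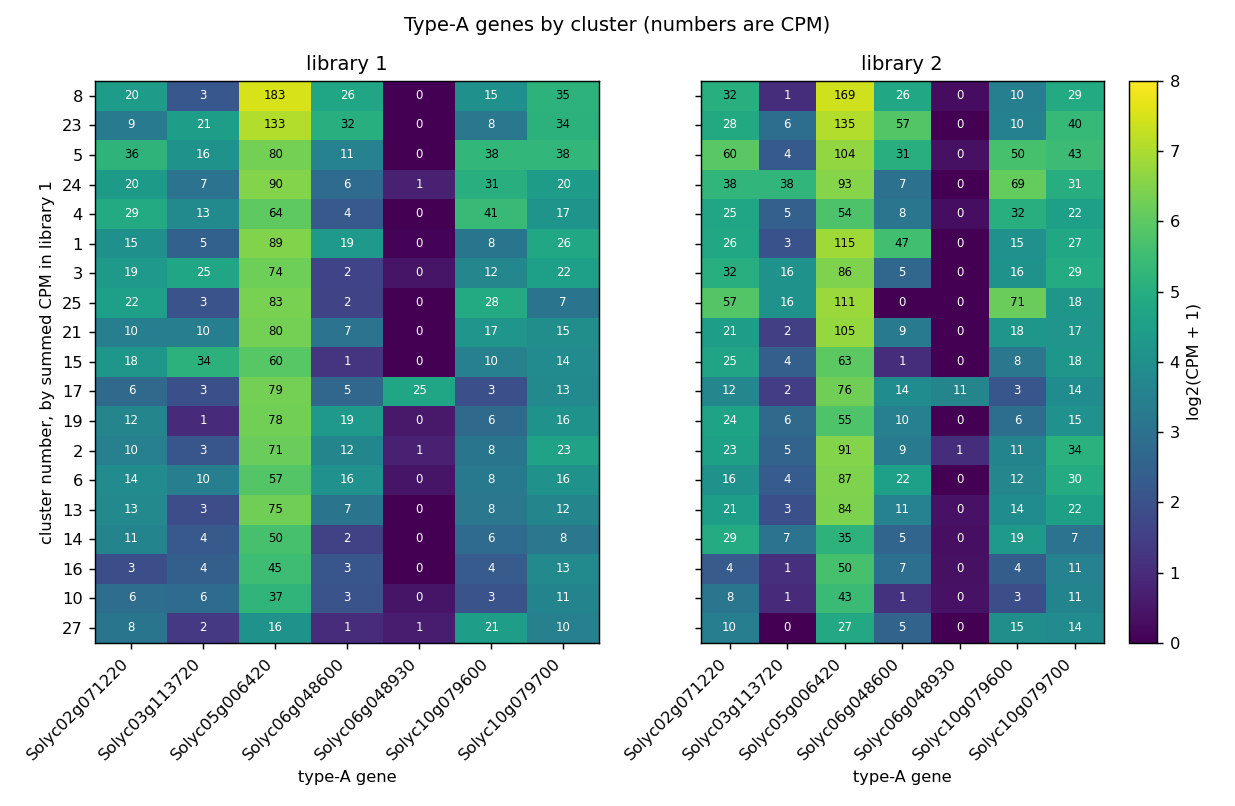
CPM of the 7 type-A genes (columns) in the 19 clusters with at least 50 cells in both libraries (rows, by summed CPM in library 1), library 1 left and library 2 right, coloured by log2(CPM + 1). Solyc05g006420 is the highest gene in most rows, and Solyc06g048930 is highest in cluster 17.

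The type-A-high cells were next compared with the rest across all other genes, with the 7 genes left out. In this fit 1699 of 18505 genes (9.18%) were higher in type-A-high cells and 2290 (12.4%) were lower (edgeR, adjusted p under 0.05). Of these 3989 genes, 3975 went the same way in both libraries. A fit without the library as a block called 0 genes, with 2314 at an unadjusted p under 0.05, whereas the Wald test of DESeq2 with the block called 1078 higher and 1425 lower. Within the 4 depth strata, 12.7% of 12788 genes were higher and 14.6% lower. Of the 1699 higher genes, 1505 could be tested there and 1178 passed in the same direction.

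Fewer genes passed within clusters. Within the 6 clusters that could be tested (1, 4, 5, 6, 8 and 23), 2.70% of 7658 genes were higher and 6.39% lower. Clusters 3, 9, 24 and 25, rich or full in type-A-high cells, had under 10 of them in one library and did not enter. Of the higher genes, 987 could be tested there and 193 passed, and of the lower genes 363 of 1215 passed. The direction was kept by 860 of the 987 higher genes and 1178 of the 1215 lower genes. Fewer cells entered that fit, 382 type-A-high cells and 5409 of the rest.

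The 12 genes with the largest and the 8 with the smallest log2 fold change, among those at 20 CPM or more, had no name or description in the tables at hand, and none was induced by protoplasting in the study's list. The 12 spanned 2.51 to 3.86 and the 8 spanned -3.48 to -2.63 on the log2 scale. Solyc10g054840 was at 122 CPM in type-A-high cells and 15.02 CPM in the rest of library 1, and at 440 and 20.2 CPM in library 2. Its log2 fold change was 3.53 ± 0.26 (edgeR adjusted p = 2.8e-06), and 1.99 within clusters (edgeR adjusted p = 3.8e-04). Solyc10g054800, with a neighbouring identifier, was at 21.6 and 4.28 CPM in library 1 and at 255 and 5.26 CPM in library 2 (3.86 ± 0.52, edgeR adjusted p = 9.7e-05). Library 2 set most of that value, which was 5.35 in library 2 and 2.10 in library 1 taken alone, with 1 CPM added to both levels. Solyc08g082120 was at 0.989 CPM in type-A-high cells and 20.8 CPM in the rest of library 1, and at 14.6 and 103 CPM in library 2 (-3.48 ± 0.27, edgeR adjusted p = 2.8e-06). With the top 10% of cells it was -0.85 and no longer passed (edgeR adjusted p = 0.12). Solyc07g049530 was at 4.55 and 25.9 CPM in library 1 and at 4.86 and 53.0 CPM in library 2 (-3.07 ± 0.25, edgeR adjusted p = 3.3e-06). All 20 genes also passed within depth strata, and the 5 of the 12 that could be tested within clusters passed there.

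Other genes of the cytokinin pathway could be traced only where the study's lists describe them. Solyc04g081290, described as a cytokinin riboside 5′-monophosphate phosphoribohydrolase, the LOG type of enzyme that releases active cytokinin, had 15 UMIs in type-A-high cells and 412 in the rest of library 1, and 30 and 612 in library 2. These are 2.97 and 2.30 CPM in library 1 and 16.2 and 8.10 CPM in library 2 (log2 fold change 0.52 ± 0.32, edgeR adjusted p = 0.28, not passed). Solyc12g087870, a purine permease-like protein of a family with cytokinin carriers, had 0 UMIs in type-A-high cells and 2 and 27 in the rest of libraries 1 and 2, too few to test. Receptors, phosphotransfer proteins and type-B regulators were not analysed here.

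Genes of the suberizing exodermis, the outer cortical layer that lays down suberin, were compared because the study describes them. SlASFT (Solyc03g097500), which transfers ferulate to suberin monomers, was at 0.396 CPM in type-A-high cells and 4.54 CPM in the rest of library 1, and at 10.3 and 35.0 CPM in library 2 (log2 fold change -2.35 ± 0.32, edgeR adjusted p = 1.1e-04). Its type-A-high values rest on 2 UMIs in library 1 and 19 in library 2. SlKCS2b (Solyc03g005320), a fatty acid elongase, and SlLACS4 (Solyc01g095750), an acyl-CoA synthetase, were also lower, at -1.79 ± 0.45 and -2.35 ± 0.72 (edgeR adjusted p = 0.0098 and 0.031). SlKCS2b had 3 UMIs in type-A-high cells and 198 in the rest of library 1, and 7 and 1039 in library 2. SlLACS4 had 1 and 98 in library 1, and 2 and 439 in library 2. For SlLACS4, library 1 alone gave -0.37 and library 2 alone -1.71. Neither SlKCS2b nor SlLACS4 passed with DESeq2 (adjusted p = 0.080 and 0.18), the top 10% of cells (edgeR adjusted p = 0.054 and 0.38) or thinning (0.058 and 0.86). With at least 5000 UMIs neither passed, SlKCS2b being at -0.38 and SlLACS4 at 0.52. Within depth strata SlKCS2b passed (-2.44, edgeR adjusted p = 0.0013), and SlLACS4 was not tested there. Of 12 of the study's suberin genes (SlFAR3B was not analysed here) 10 were tested, 3 passed as lower and none as higher, beside 12.4% lower and 9.18% higher over all genes. SlMYB41, a suberin regulator, was at -1.57 ± 0.77 (edgeR adjusted p = 0.18).

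Of 50 late exodermis genes, which the study picked from these libraries, 46 were tested, 17 (37.0%) were lower and 3 (6.52%) were higher, beside 12.4% and 9.18% over all genes. Their median log2 fold change was -1.53 beside -0.02 over all genes tested, and DESeq2 called 8 of the 17. Within depth strata 12 of the 17 could be tested and all 12 passed as lower. Over the list, 23 genes were tested there, with 13 lower and 3 higher, beside 14.6% and 12.7% of all genes. Those lower included the lipid transfer protein Solyc09g082280 (-2.17 ± 0.31) and the PELPK2-like protein Solyc04g014320 (-2.53 ± 0.45), with edgeR adjusted p of 1.3e-04 and 8.2e-04. Solyc04g014320 had 0 UMIs in type-A-high cells of library 1 and 15 in library 2, and did not pass with DESeq2 (adjusted p = 0.25). Solyc10g075100, also among the 17, differed in direction between libraries. It was at 1.78 CPM in type-A-high cells and 1.15 CPM in the rest of library 1, and at 4.32 and 35.8 CPM in library 2. With cells ranked after thinning, Solyc10g075100 passed as higher (1.87, edgeR adjusted p = 6.3e-04). So did Solyc09g065440 (2.13, 0.0036) and Solyc07g066360 (1.44, 0.035), also among the 17. Others of the 17 still passed as lower there, among them Solyc09g082280 (-1.31, 0.0057) and Solyc04g014320 (-1.30, 0.0069). Lipid transfer proteins bind lipids outside the cell. Because the list was chosen on these samples, its count is not independent evidence of a direction.

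These lower values changed when a single cluster was left out. Cluster 28 had SlASFT UMIs in 35 of 41 cells of library 1 and 107 of 117 of library 2, and it held 0 type-A-high cells in library 1, which allows a share of up to 7.32% by a limit of 3 counts and 8.60% by the exact interval, and 2 in library 2. Without cluster 28, a setting added after seeing the data in which 8.10% of 18458 genes were higher and 11.2% lower, 1 of the 17 lower genes still passed, the lipid transfer protein Solyc09g065430 (-1.10, edgeR adjusted p = 0.012). SlASFT was then at -0.26 (edgeR adjusted p = 0.80), and the median over the list was -0.07. SlASFT (Solyc03g097500) also lost its call with at least 5000 UMIs per cell (-0.20, edgeR adjusted p = 0.84), after thinning (-0.89, 0.13) and with the top 10% of cells (-0.997, 0.11). It kept its call within depth strata (-3.01, edgeR adjusted p = 4.5e-04) and with DESeq2 (-2.44, adjusted p = 6.2e-05). The 3 higher genes still passed without cluster 28.

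**Figure D5:**
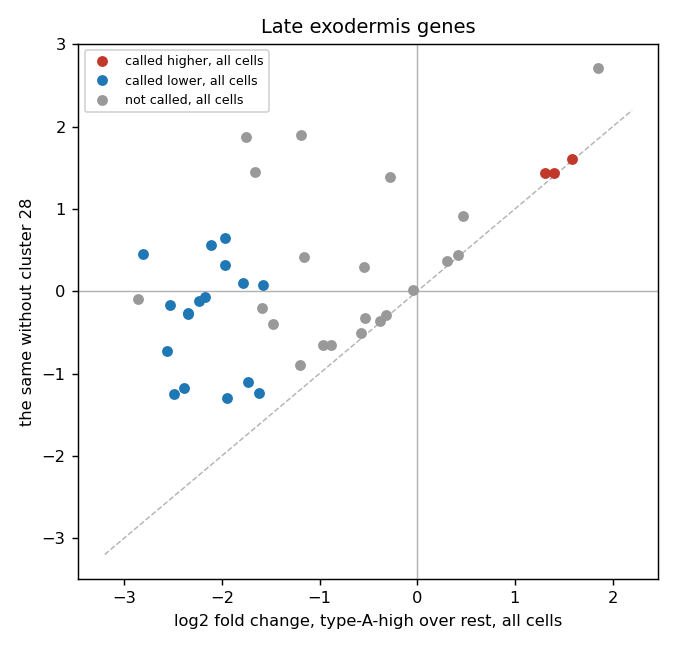
Log2 fold change between type-A-high cells and the rest for 41 late exodermis genes, over all cells (x) and without cluster 28 (y), red for genes that were higher, blue for the 17 that were lower and grey for others over all cells. Blue points sit at or above -1.29 on the y axis, and the 3 red points stay on the dashed line of equal values.

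The 3 higher genes were described as a pathogenesis-related STH-2-like protein, an O-methyltransferase and an R2R3 MYB factor. Solyc09g090980, the STH-2-like gene, was at 530 CPM in type-A-high cells and 103 CPM in the rest of library 1, and at 549 and 242 CPM in library 2 (1.58 ± 0.24, edgeR adjusted p = 2.1e-04). The O-methyltransferase Solyc03g080180 was at 121 and 28.8 CPM in library 1 and at 186 and 85.9 CPM in library 2 (1.40 ± 0.20, edgeR adjusted p = 1.7e-04). Within clusters the STH-2-like gene stood at 0.0053 and the O-methyltransferase at 0.27, and neither passed (edgeR adjusted p = 0.997 and 0.46). With the top 2% of cells they were at 0.62 and 0.53 and did not pass either (edgeR adjusted p = 0.11 and 0.14). The MYB factor Solyc01g111500 was at 7.72 and 2.92 CPM in library 1 and at 35.7 and 11.8 CPM in library 2 (1.31 ± 0.23, edgeR adjusted p = 8.2e-04).

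In the study's suberin co-expression module, 107 of the 150 genes outside the suberin and late exodermis lists were tested, 13 (12.1%) were higher and 9 (8.41%) lower, near the 9.18% and 12.4% over all genes, with a median of -0.01. The highest of those above 10 CPM in type-A-high cells of both libraries was the lipoxygenase Solyc01g099160, an enzyme class that oxidises fatty acids. It was at 11.3 CPM in type-A-high cells and 2.95 CPM in the rest of library 1, and at 44.3 and 8.56 CPM in library 2 (1.96 ± 0.23, edgeR adjusted p = 3.3e-05). Of the 13, 8 could be tested within clusters and 3 passed. These were the protein phosphatase 2C Solyc03g096670, the Myb-like factor Solyc05g055940 and the CONSTANS-interacting protein Solyc06g073180, at 1.08, 0.68 and 0.51 on the log2 scale (edgeR adjusted p = 0.0079, 0.015 and 0.027). The phosphatase did not pass within depth strata (0.63, edgeR adjusted p = 0.23), after thinning (0.32, 0.14) or without the 5% of cells with the most UMIs (0.80, 0.14), nor with the top 2% or 10% of cells (0.61 and 0.66, 0.10 and 0.20), and its value was 1.82 in library 1 and 0.59 in library 2 alone. Protein phosphatases of the 2C class include negative regulators of abscisic acid signalling.

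Genes that the study lists as induced by protoplasting were counted beside these. Of 747 tested, 139 (18.6%) were higher and 77 (10.3%) lower, beside 9.18% and 12.4% of all genes, with a median log2 fold change of 0.09. Their summed level was 67207 CPM in type-A-high cells and 44918 CPM in the rest of library 1, and 68982 and 55395 CPM in library 2. The part of this in the other differences was not tested beyond leaving the list out, after which 1923 genes were higher and 2520 lower.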

How the data were processed

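Both libraries of M82 root tip protoplasts were analysed. Raw UMI counts for every gene and cell barcode were deposited, which the authors made with cellranger 6.0.1 (named in the file headers) against the tomato genome SL4.0 and annotation ITAG4.1 with organelle sequences appended. Each matrix has 34716 genes, 23 of them plastid and 5 mitochondrial. The members, lists and tests were chosen with earlier results of these data known.

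Counts were summed per library over type-A-high cells and the rest, without the 7 genes and organelle genes, and tested with edgeR 4.0.16 (TMM, filterByExpr, glmQLFit, glmQLFTest) with library as a block, since both sums of a pair come from one library, and Benjamini-Hochberg adjustment over all genes tested. This leaves 1 residual degree of freedom, so the spread was mostly borrowed across genes. Deviations of the paired sums correlated at 0.56 across genes. The SE of a log2 fold change is its absolute value divided by the root of the F statistic. Values of 1 library alone are log2 ratios of CPM with 1 CPM added. Clusters came from 2000 variable genes, 35 principal components, 20 neighbours and Leiden (leidenalg 0.10.2, resolution 1, seed 1). Doublets were not called, and leaving out the 5% of cells with the most UMIs was an alternative. Strata with under 10 cells of either kind were left out of fits within clusters.

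Alternatives were DESeq2 1.42.0 (Wald test, and its size factors in edgeR), no filter, no block, at least 5000 UMIs, an organelle limit of 5%, the top 2% or 10%, ranking after thinning, fits within clusters or 4 depth strata, and resolutions of 0.5 and 2. On simulated data for this comparison (18047 genes, 193 of them changed, dispersion 0.02), 81.9% of 4-fold and 42.7% of 2-fold changes were called, and 4.17% of calls were unchanged genes. The simulation gave all genes the same dispersion and changed far fewer genes than the real fit called. Its rates may therefore not hold for the real data. Genes were named as the 12 highest and 8 lowest log2 fold changes at 20 CPM or more with one direction in both libraries, and 4 of these are printed, since no names come with them. Described genes of the study's lists were picked for naming after their values were seen. Lists that needed gene descriptions beyond the study's were not applied.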

Additional observations from a re-analysis of the deposited data

How the results depend on the processing

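The counts of 1699 higher and 2290 lower genes fell to 0 and 0 with no replicate block (unpaired fit, 2314 genes at an unadjusted p under 0.05), to 1078 and 1425 with the DESeq2 Wald test, to 1051 and 1436 with the top 2% of cells, and to 207 and 489 within clusters, where fewer cells and genes were tested. Without the 5% of cells with the most UMIs 1394 genes were lower. Of the held-out genes 6 passed, and 0 passed with no replicate block. The 3 fullest clusters of each library, which differed between libraries, held 36.8% of its type-A-high cells as a mean of the 2 libraries. The same mean was 45.7% at resolution 0.5 and 27.2% at resolution 2, which cut the cells more coarsely and more finely. After thinning it was 39.5%. Without replicate 1 or replicate 2 this share was 36.7% and 36.8%. Counts of genes have no value with 1 library, since no residual degrees of freedom are left. Of the 54 single genes recomputed, some reversed in direction without passing there. These were SlLACS4 (Solyc01g095750, 0.52 with at least 5000 UMIs) and SlKCS2b (Solyc03g005320, 0.10 without cluster 28). Within clusters, Solyc08g076880 (-0.052) and Solyc11g011340 (-0.31) did so too. Ranking after thinning also turned some lower late exodermis genes, such as Solyc10g075100, into higher ones that passed. The cause was not tested. Over 54 single genes, 726 of 911 recomputed values kept their direction and call or stayed within 1 SE, and 109 lost the call, 45 of them with no replicate block. Depth limits which single cells are chosen, since their median is 4 type-A UMIs.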
